A study of Mus musculus with 6 samples.

Results

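The genes described here encode calcineurin, its inhibitors and the NFAT transcription factors that it activates. They were chosen by symbol, as 10 genes of the pathway, out of 23152 genes on the array, and each of the 10 was found. Together they carried 151 probe sets, from 5 for Ppp3r1 to 33 for Cabin1. RNA came from whole soleus, a slow hindlimb muscle, of male mice that were 18 weeks old and had gone 14 h without food. The 3 control mice (WT) were Gna13 flox/flox, and the 3 knockout mice (Gna13 MKO, here MKO) were Ckmm-Cre; Gna13 flox/flox, so that floxed Gna13 alleles were shared by both groups and Cre set them apart. No group carried Cre without floxed alleles, so effects of Cre and of the deletion cannot be told apart. The Ckmm promoter, that of muscle creatine kinase, drives Cre in muscle fibres, and the other cells of the soleus keep Gna13. Gna13 encodes the G protein subunit Gα13, which signals through RhoA.

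Calcineurin is a phosphatase that calcium switches on. It removes phosphates from NFAT proteins, which then enter the nucleus, and kinases such as GSK3, DYRK and casein kinase 1 put the phosphates back and send NFAT out again. In skeletal muscle the pathway is known for coupling slow motor nerve activity to slow and oxidative fibre genes, and NFAT activity is set mainly by phosphorylation, which RNA does not measure.

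None of the 10 genes differed between MKO and WT at the adjusted threshold. The counts were 0 of 10 members and 0 of 23152 genes (0%) at an adjusted p under 0.05 in limma. At an unadjusted p under 0.05, 1 of the 10 differed, Ppp3r1, against 1002, or 4.33%, of all genes. Ppp3r1, the calcium-binding regulatory subunit B of calcineurin, stood 0.42 log2 units higher in MKO (SE 0.13, 1.34-fold, adjusted p = 0.9997 in limma). It was also the single member without overlap between the MKO and WT arrays, a pattern seen in 9.25% of all genes. The values of the other members overlapped between the groups. A re-implementation of the LPE test likewise called 0 members after adjustment and 1, Ppp3r1, at an unadjusted p under 0.05. Over the 10 genes, 6 were higher and 4 lower, with a median difference of 0.00, beside −0.01 over all genes, of which 46.6% were higher.

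**Figure D1:**
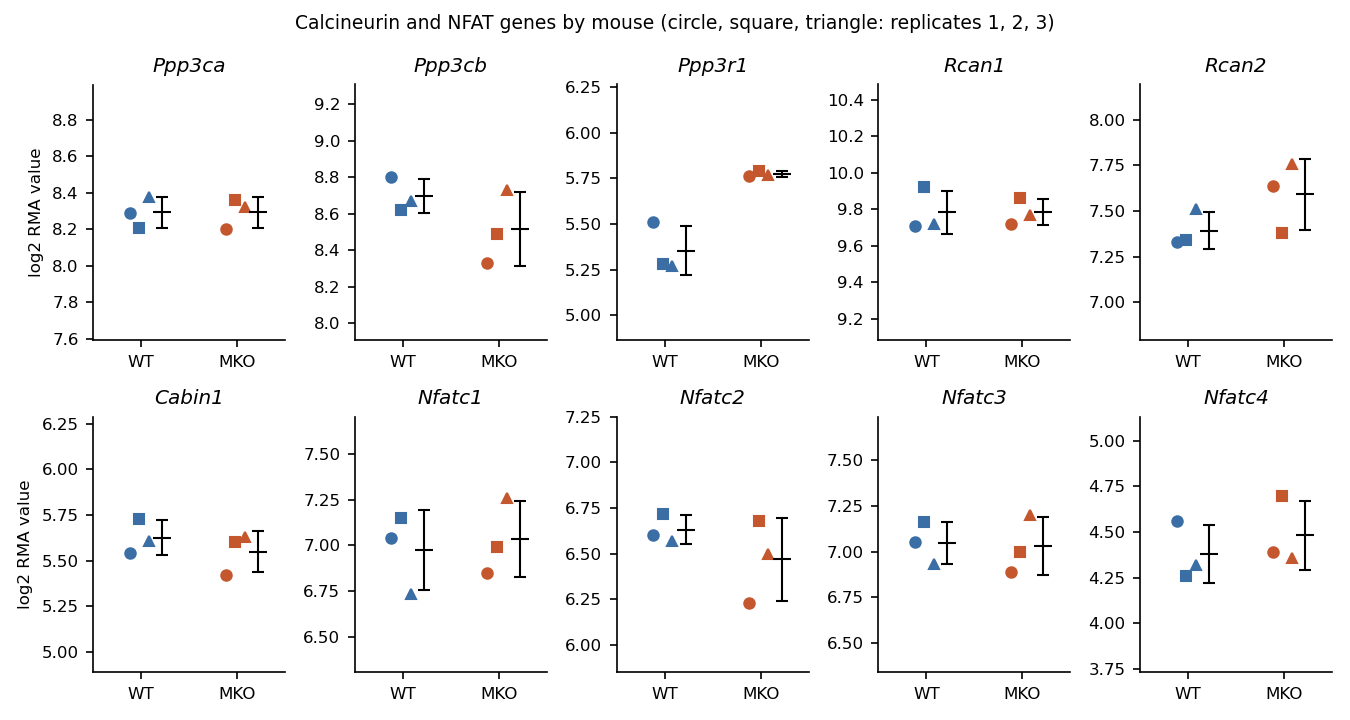
Each panel plots the log2 RMA value (y axis) of 1 gene in the 3 WT and 3 MKO mice, with the mean and SD at the right of each group and every axis spanning 1.4 log2 units. The MKO points of Ppp3r1, at 5.76 to 5.79, lie above its WT points, at 5.27 to 5.51, and in the other 9 panels the groups overlap.

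The array medians were 4.955, 4.935 and 4.92 log2 units in WT replicates 1 to 3 and 4.874, 4.907 and 4.931 in MKO replicates 1 to 3. The groups overlapped, with MKO replicates 1 and 2 the lowest. Gna13 served as a check of the genotype. In probe set 17257825 the WT mice averaged 5.96 ± 0.41 and the MKO mice 4.0 ± 0.50 (SD, n = 3), and MKO minus WT was −1.95 (SE 0.42). Probe sets 17257824, 17257828 and 17257829 were higher in MKO, by 0.65, 0.51 and 0.67, with arrays apart, and the mean over all Gna13 probe sets differed by 0.04 (SE 0.13). The exons behind these probe sets are not named in the sources used here. Fibre markers were measured in every mouse, with a mean over 8 genes of 10.91 to 10.97 in WT and 10.83 to 10.91 in MKO. The T cell marker mean was higher in all MKO arrays (3.77 to 3.89 against 3.60 to 3.74 in WT, with 6 of 7 genes higher), and that of macrophages was lower (5.04 to 5.20 against 5.24 to 5.55, with 7 of 7 lower). Both separations rested on few genes. Of the 7 T cell genes only 1 lay above the median level of all genes. Cd3g (means of 2.78 in WT and 3.19 in MKO) and Cd2 (3.43 and 3.82) did not. Without Cd68, which differed by −0.82 where the other 6 macrophage genes differed by −0.18 to −0.06, the macrophage mean was 5.01 to 5.42 in WT and 5.01 to 5.14 in MKO, which overlapped. Without Cd3g (0.41) the T cell mean was 3.76 to 3.88 in WT and 3.87 to 4.01 in MKO, overlapping narrowly, and apart from Cd2 (0.39) the other T cell genes differed by −0.08 to 0.09. These means without 1 gene were added after seeing the data. Without WT replicate 1, 4 of 7 macrophage genes were lower, and without WT replicate 2 or with array weights, 4 of 7 T cell genes were higher, with medians of 0.008 and 0.002. Lower by their median were also endothelial (−0.16, 8 of 8 genes lower), fibroblast (−0.30, 6 of 6), tenocyte (−0.12, 4 of 5), adipocyte (−0.14, 3 of 5), satellite cell (−0.06, 5 of 6) and smooth muscle markers (−0.03, 4 of 6), and fibre markers stood at −0.06 (6 of 8 lower). In these lists arrays lay apart, as in 9.25% of all genes, for Cldn5 (−0.73, SE 0.15), Vwf (−0.27, SE 0.13), Cspg4 (−0.27, SE 0.14), Des (−0.23, SE 0.06) and Cox6a2 (−0.18, SE 0.07). Their adjusted p in limma was 0.6655 or more. Markers of Schwann cells and nerve (0.13, 4 of 5 higher) and B cells (0.13, 3 of 3) were higher. Only 2 of the 5 and 0 of the 3 lay above the median level of all genes. The mean of each of these lists overlapped between the groups, and over the alternatives the medians of the adipocyte list (−0.422 to 0.114) and the smooth muscle list (−0.114 to 0.011) crossed 0. NFAT genes are expressed in lymphocytes and endothelium as well as in fibres, and in whole muscle fewer cells of a type and less RNA per cell cannot be told apart. The part of these cells in the values below was not tested.

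Promoter windows are shown for the gene known as a readout of the pathway, Rcan1, and for Ppp3r1, the member whose arrays lay apart. They come from RefSeq (GRCm38.p6), from which 13 windows of 8 of the 10 members were used. No window of Nfatc1 or Ppp3ca was used. Each window is the 250 bases before a transcript's start, written 5′ to 3′ on the gene's strand, with the NFAT core GGAAA, or TTTCC for the other strand, in capitals. Rcan1 has windows at 2 starts on the minus strand, chr16:92466170-92466419 and, 66091 bases further into the gene, chr16:92400079-92400328. An internal start of Rcan1 is known to be induced by NFAT. The Ppp3r1 window is chr11:17159048-17159297 on the plus strand.

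Rcan1 start 1: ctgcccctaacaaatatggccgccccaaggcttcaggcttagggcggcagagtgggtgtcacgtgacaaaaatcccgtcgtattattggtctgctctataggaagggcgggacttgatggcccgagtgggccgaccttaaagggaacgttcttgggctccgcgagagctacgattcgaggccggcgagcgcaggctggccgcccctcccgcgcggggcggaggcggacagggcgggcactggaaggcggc

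Rcan1 start 2: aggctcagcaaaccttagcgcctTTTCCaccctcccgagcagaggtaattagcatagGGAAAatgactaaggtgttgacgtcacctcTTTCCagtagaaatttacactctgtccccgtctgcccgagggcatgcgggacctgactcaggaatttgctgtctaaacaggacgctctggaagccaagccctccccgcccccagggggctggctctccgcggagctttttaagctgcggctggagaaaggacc

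Ppp3r1: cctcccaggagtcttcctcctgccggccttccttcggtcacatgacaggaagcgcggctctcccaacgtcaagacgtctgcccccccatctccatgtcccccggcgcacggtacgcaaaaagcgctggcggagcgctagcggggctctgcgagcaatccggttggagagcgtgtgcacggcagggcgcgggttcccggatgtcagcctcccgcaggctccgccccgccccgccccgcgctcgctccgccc

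The window before Rcan1 start 2 held 3 copies of the NFAT core, counted on both strands with overlaps allowed, and the window before start 1 held 0, as did that of Ppp3r1. Of all 32851 RefSeq windows of the same length, 55.6% held at least 1 copy and 6.39% held 3 or more. The Rcan1 start 2 window also held 1 copy of the AP-1 motif TGANTCA, which 6.75% of windows hold and which overlaps no NFAT core there. The E-box CANNTG, in 66.2% of windows, and the MEF2 site, in 2.92%, were searched too. None of the member windows used held a MEF2 site, and the Rcan1 start 1 and Ppp3r1 windows each held 1 E-box. Among the windows used, others with 3 copies of the NFAT core were those of Nfatc4, Ppp3cb and the upstream start of Nfatc2. These matches describe the letters and are not shown to be bound.

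Ppp3ca and Ppp3cb encode the catalytic subunits of calcineurin found in muscle. Ppp3ca stood at 8.29, 8.21 and 8.38 in WT replicates 1 to 3 and at 8.20, 8.36 and 8.32 in MKO replicates 1 to 3. The groups overlapped fully, and the difference was 0.0004 (SE 0.093, 95% interval −0.20 to 0.20). Its 20 probe sets divided into 11 higher and 9 lower in MKO, with a median difference of 0.02. Among them probe set 17402974 had the largest difference, −0.33 (SE 0.14), and its MKO values of 8.89, 8.89 and 8.95 lay just below the lowest WT value of 8.98.

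Ppp3cb stood at 8.80, 8.62 and 8.67 in WT and at 8.33, 8.49 and 8.73 in MKO. MKO replicates 1 and 2 lay below every WT mouse and MKO replicate 3 within the WT range. The difference of −0.18 (SE 0.11, 95% interval −0.41 to 0.06) was −0.08 without MKO replicate 1 and −0.28, at an unadjusted p under 0.05, without MKO replicate 3. Of its 15 probe sets, 12 were lower, the lowest being 17303831 at −0.60 (SE 0.37), and none had MKO arrays apart from WT arrays. The third catalytic gene, Ppp3cc, which is not a member, differed by −0.003 (SE 0.145), a sign that turned under 4 of the alternatives other than leaving out an array. Ppp3r2, the regulatory subunit known from testis, differed by 0.30 (SE 0.18).

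Ppp3r1 encodes the regulatory subunit that binds calcium and holds the catalytic subunit in an active form. It stood at 5.51, 5.28 and 5.27 in WT and at 5.76, 5.79 and 5.77 in MKO. The 3 MKO mice lay close together, with an SD of 0.01 against 0.13 in WT, and above all WT mice. The T cell marker mean, at a dim level, was also higher and the macrophage marker mean lower in every MKO array. Each overlapped once Cd3g or Cd68 was left out, and the part of these cells in the Ppp3r1 difference was not tested. The difference was 0.42 (SE 0.13, 95% interval 0.14 to 0.71), with an adjusted p of 0.9997 in limma, and 0.61% of genes had a smaller unadjusted p. Leaving out any array kept it between 0.38 and 0.50.

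The 5 probe sets of Ppp3r1 were all higher in MKO, by 0.05 to 1.13. Probe set 17247456, the brightest, read 9.02, 9.06 and 8.96 in WT and 9.13, 9.24 and 9.45 in MKO. Probe set 17247457 read 7.01, 6.64 and 6.81 in WT and 7.26, 7.29 and 7.07 in MKO. In both the groups lay apart, at differences of 0.26 (SE 0.13) and 0.39 (SE 0.20). Probe set 17247455 had the largest difference, 1.13 (SE 0.49), at a dim level of 3.94, 2.62 and 3.28 in WT against 4.35, 4.66 and 4.22 in MKO. The remaining 2, 17247449 at 0.05 (SE 0.29) and 17247451 at 0.30 (SE 0.40), overlapped. Without 17247455, an alternative chosen after seeing the data, the gene stood at 5.90, 5.95 and 5.76 in WT and 6.12, 6.07 and 6.16 in MKO. The groups still lay apart, but the difference was 0.25 (SE 0.12), no longer at an unadjusted p under 0.05. It was 0.23 from probe sets above the median level, still at an unadjusted p under 0.05. With the median in place of the mean of the probe sets it was 0.05, not at an unadjusted p under 0.05, since the middle probe set by level, 17247449, then gave the value.

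**Figure D2:**
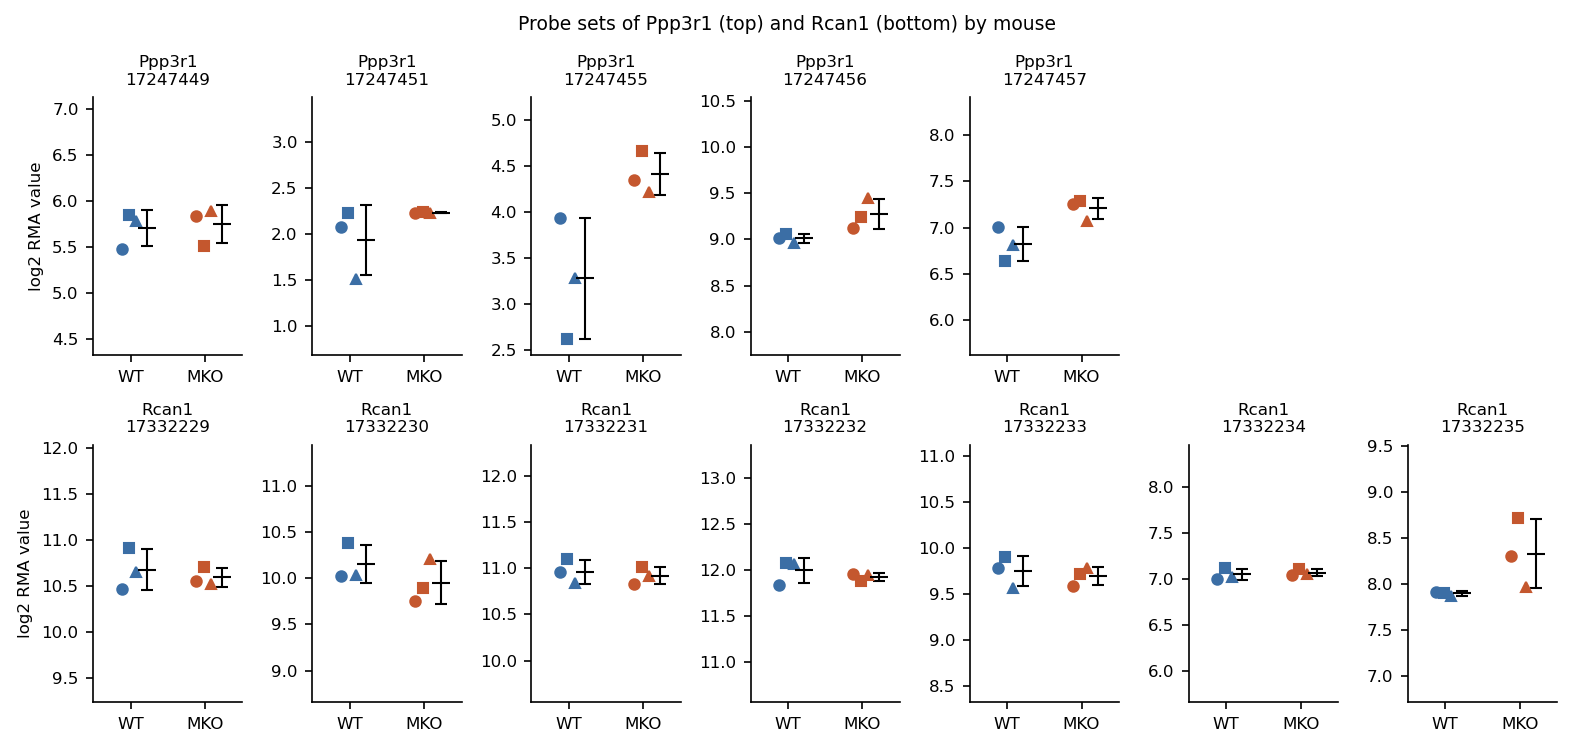
The log2 RMA value (y axis, each panel spanning 2.8 units) of every probe set of Ppp3r1 and Rcan1 is plotted for the 3 WT and 3 MKO mice, with mean and SD. The 3 MKO points lie above the 3 WT points in 3 of 5 Ppp3r1 panels and in 1 of 7 Rcan1 panels, 17332235. Of all probe sets on the array, 9.9% lay apart in either direction.

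Among the genes compared, those whose pattern over the 6 arrays lay nearest to that of Ppp3r1 were Fibin, Gmcl1l and Tatdn3. Predicted genes, genes named by clone or accession, smell receptors and small RNAs were left out by name. Nearness was the root mean square difference of values taken from each gene's own mean, over genes above the median level, and came to 0.061, 0.061 and 0.070 log2 units. Gmcl1l rested on 1 probe set. Their differences between groups were 0.33 (SE 0.14), 0.40 (SE 0.14) and 0.31 (SE 0.14), which the choice of genes by their likeness to Ppp3r1 fixes in sign and near size.

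Rcan1, Rcan2 and Cabin1 restrain calcineurin. Rcan1, whose transcription from an internal start rises when NFAT is active, is used as a readout of the pathway. Its gene value, a mean over 7 probe sets, does not separate transcripts from its different starts. It stood at 9.71, 9.92 and 9.72 in WT and at 9.72, 9.86 and 9.77 in MKO. The MKO values lay inside the WT range in all 3 mice, and the difference was 0.0005 (SE 0.081, 95% interval −0.18 to 0.18). Of its 7 probe sets, 5 were lower and 2 higher, and 6 lay between −0.20 and 0.02. The other, 17332235, read 7.92, 7.91 and 7.87 in WT and 8.31, 8.72 and 7.97 in MKO. All MKO values were above all WT values there, by 0.43 on average (SE 0.20), and MKO replicate 3 only by a small margin. Without MKO replicate 3 the difference was 0.61, at an unadjusted p under 0.05, and without MKO replicate 2 it was 0.24. The Rcan1 transcript behind this probe set is not named in the sources used here.

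Rcan2, a relative of Rcan1 that also binds calcineurin, stood at 7.33, 7.34 and 7.51 in WT and at 7.64, 7.38 and 7.76 in MKO. MKO replicates 1 and 3 were above every WT mouse and MKO replicate 2 was not. The difference of 0.20 (SE 0.12, 95% interval −0.06 to 0.45) was 0.31, at an unadjusted p under 0.05, without MKO replicate 2 and 0.11 without MKO replicate 3. Of 9 probe sets, 8 were higher. The brightest, 17337842, had the smallest p of all 151 member probe sets. It read 10.60, 10.63 and 10.92 in WT and 11.01, 11.09 and 11.05 in MKO, a difference of 0.33 (SE 0.10, adjusted p = 0.9788 in limma). The largest difference, 0.53 (SE 0.35), was that of 17337835, whose arrays overlapped.

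Cabin1, a nuclear protein that binds calcineurin and MEF2, stood at 5.54, 5.73 and 5.61 in WT and at 5.42, 5.60 and 5.63 in MKO. The groups overlapped, with a difference of −0.08 (SE 0.13, 95% interval −0.36 to 0.21). Its 33 probe sets spread from −0.90 to 1.47, with 13 higher and 20 lower. The widest, 17241882 at 1.47 (SE 0.56), was dim, with a mean level of 4.55 and a WT range of 2.80 to 4.40.

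**Figure D3:**
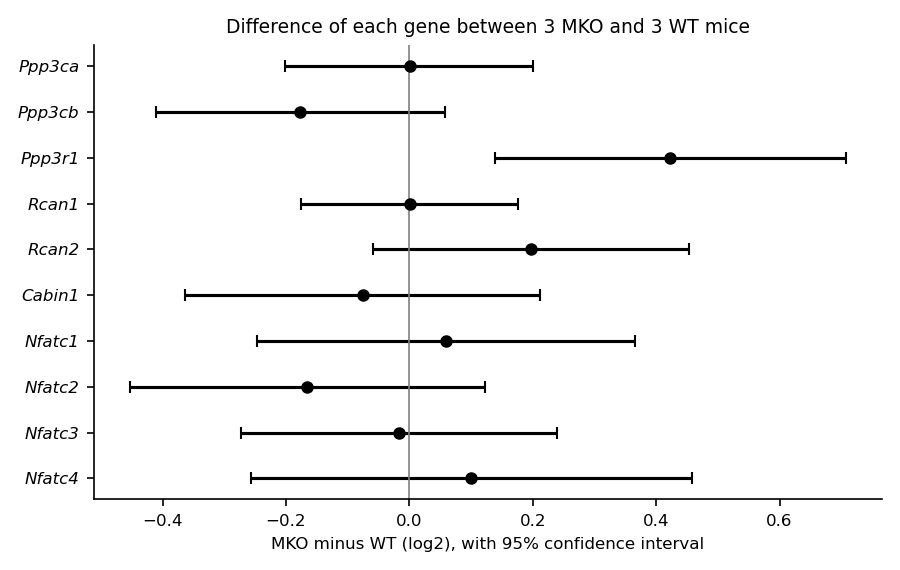
Points give the difference MKO minus WT of each gene on the log2 scale (x axis) and bars its 95% confidence interval from limma, for 3 mice a group. The interval of Ppp3r1, 0.14 to 0.71, is the 1 that leaves out 0, before adjustment for the 23152 genes tested.

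The 4 calcium-regulated NFAT genes showed no shared direction. Nfatc1, which follows nerve activity in slow fibres, stood at 7.04, 7.15 and 6.73 in WT and at 6.85, 6.99 and 7.26 in MKO. Its lowest value was a WT mouse and its highest an MKO mouse, with the other 4 between, and the difference was 0.06 (SE 0.14, 95% interval −0.25 to 0.37). Of its 15 probe sets, 13 were higher, by at most 0.28. Probe set 17355680 stood out on the other side. It read 7.96, 7.81 and 7.86 in WT and 7.38, 7.41 and 7.37 in MKO, and every MKO mouse lay below every WT mouse. The difference of −0.49 (SE 0.16, adjusted p = 0.9788 in limma) stayed between −0.52 and −0.45 when any array was left out.

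Nfatc2, an NFAT of myoblast growth and of T cells, stood at 6.60, 6.72 and 6.57 in WT and at 6.23, 6.68 and 6.50 in MKO. MKO replicate 1 was the lowest, and MKO replicate 2 was second to 1 WT mouse. The difference of −0.17 (SE 0.13, 95% interval −0.45 to 0.12) was −0.05 without MKO replicate 1. Of 20 probe sets, 15 were lower, 3 of them with MKO arrays apart from WT arrays, beside 9.9% of all probe sets on the array. One of the 3, 17394812, stood at 7.66, 7.81 and 7.78 in WT and 6.61, 7.36 and 7.40 in MKO, a difference of −0.63 (SE 0.24). The widest was 17394820 at 0.78 (SE 0.80), a dim probe set that read 0.93 to 3.96 over the 3 MKO mice.

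Nfatc3, present in fast and slow fibres, stood at 7.05, 7.16 and 6.93 in WT and at 6.89, 7.0 and 7.20 in MKO. The ranges nearly coincided, and the difference was −0.02 (SE 0.12, 95% interval −0.27 to 0.24). It became 0.02 after quantile normalization and 0.01 after median centring. None of its 15 probe sets had MKO arrays apart from WT arrays, and the widest was 17505036 at −0.71 (SE 0.38).

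Nfatc4 was the member nearest to the middle of the array's genes, with a level at the 50.6th percentile, and 6 of its 12 probe sets lay above the median probe set level. It stood at 4.56, 4.26 and 4.32 in WT and at 4.39, 4.70 and 4.36 in MKO, a difference of 0.10 (SE 0.17, 95% interval −0.26 to 0.46). The groups overlapped. Its probe sets had the widest spread of all members, from −1.41 (17300673, SE 0.48) to 1.88 (17300675, SE 0.61). Both were dim, with mean levels of 2.39 and 2.71, and differed in opposite directions.

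**Figure D4:**
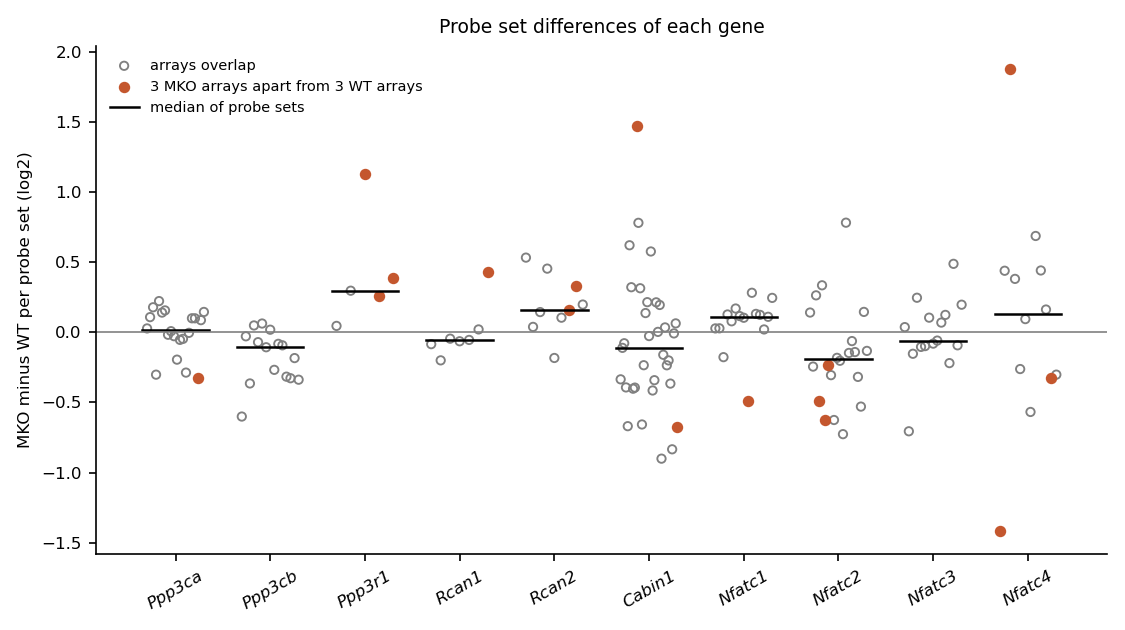
Each circle is the difference MKO minus WT (log2, y axis) of 1 of the 151 probe sets, by gene. Filled circles mark the 16 probe sets without overlap between the groups, 8 above and 8 below (10.6%, beside 9.9% of all probe sets). Bars mark each gene's median, highest for Ppp3r1 at 0.30.

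Over all 151 probe sets of the members, 74 were higher and 77 lower in MKO. With each probe set fitted by itself in limma, 0 passed the adjusted threshold, with a lowest adjusted p of 0.9788. At an unadjusted p under 0.05 there were 8, or 5.30%, beside 4.98% of the 233753 probe sets on the array. Of these, 4 were higher and 4 lower. The groups did not overlap in 16, or 10.6%, beside 9.90% of the array's probe sets. Both shares are near those of the whole array.

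Other genes of the pathway came from lists made from knowledge of the pathway. Of 133 symbols, 126 were measured, Rcan1 among them, and the 7 others were not analysed here. Of the 125 outside the members, 0 passed the adjusted threshold in limma. At an unadjusted p under 0.05, 10 were lower and 0 higher, together 8% beside 4.33% of all genes. Over the 125 genes the median difference was −0.06 beside −0.01 for all genes, and 89, or 71.2%, were lower and 36 higher. Of the 111 above the median level, 72.1% were lower with a median of −0.065, beside 61.6% and −0.038 for all genes above that level. Over the alternatives the share lower ran from 60.8% to 77.6%, with 76 lower and a median of −0.028 after quantile normalization and 78 and −0.031 after median centring. The arrays lay apart in 12, or 9.60%, near the 9.25% of all genes.

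The kinases that act against calcineurin on NFAT, listed with calmodulin kinases, the export receptor Xpo1 and the NFAT-binding RNA Nron, had a median of −0.13. Of 23 measured genes, 21 were lower and 2 higher, where 53.4% of all genes were lower. Of the 21 that lay above the median level, 20, or 95.2%, were lower, where 61.6% of all genes above that level were lower. The count of lower genes ranged from 16 to 21 over the alternatives, and was 19 after quantile normalization and after median centring, with medians of −0.09 and −0.10. At an unadjusted p under 0.05, 3 of the 23 were lower and 0 higher, beside 4.33% of all genes in either direction. None passed the adjusted threshold.

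Gsk3b, a kinase that drives NFAT out of the nucleus, stood at 8.76, 8.74 and 8.84 in WT and at 8.31, 8.34 and 8.61 in MKO. Every MKO mouse was below every WT mouse, with MKO replicate 3 the closest. The difference was −0.36 (SE 0.10, 1.28-fold, adjusted p = 0.9997 in limma). Of its 12 probe sets 9 were lower, and the gene's value turned to 0.01 with the median in place of the mean of the probe sets, the 1 of 16 alternatives in which the unadjusted p was not under 0.05.

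Csnk1a1, casein kinase 1 alpha, stood at 7.75, 7.89 and 7.83 in WT and at 7.40, 7.36 and 7.72 in MKO. These groups lay apart too, by a narrow margin at MKO replicate 3, with a difference of −0.33 (SE 0.12, unadjusted p under 0.05). It was −0.03 with probe sets above the median level and −0.09 with the median of probe sets, and the p was not under 0.05 in these and in 2 more of 16 alternatives, without WT replicate 2 and without MKO replicate 2. Dyrk2, which primes NFAT for GSK3, stood at 6.75, 6.84 and 6.84 in WT and at 6.55, 6.58 and 6.58 in MKO. It was lower in all 5 of its probe sets and by −0.24 as a gene (SE 0.11, unadjusted p under 0.05). That p was not under 0.05 in 13 of 16 alternatives, all 6 that left out an array among them, with values of −0.27 to −0.18. Dyrk1a differed by −0.13 (SE 0.09) and Rock1, a kinase downstream of RhoA, by −0.02 (SE 0.15), a value that turned to 0.02 after quantile normalization and 0.14 with the median of probe sets.

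Among calcineurin's anchors and inhibitors, 11 of 17 were lower (median −0.05), and those with the smallest p were the LIM protein Lmcd1 (−0.23, SE 0.10, unadjusted p under 0.05), the anchor Akap5 (−0.28, SE 0.14) and the Z-disc actinin Actn2 (−0.10, SE 0.06). The arrays of Lmcd1 overlapped, its value was −0.11 without WT replicate 2, and its p was under 0.05 in 7 of 16 alternatives. Akap5 turned to 0.10 with probe sets above the median level. Genes of calcium entry and release had a median of −0.03, with 11 of 18 lower and none at an unadjusted p under 0.05. The channel genes Trpc1 (−0.30, SE 0.15), Itpr3 (−0.22, SE 0.15) and Trpc6 (0.25, SE 0.20) had the smallest p there. NFAT5, which calcineurin does not regulate, and the transcriptional partners had a median of −0.03, with 15 of 23 lower. The myogenic factor Myog (−0.51, SE 0.14) and the AP-1 subunit Fos (−0.53, SE 0.19) were lower at an unadjusted p under 0.05, while Jun differed by 0.18 (SE 0.11) and Nfat5 by −0.22 (SE 0.15). The MKO arrays of Myog, at 6.32 to 6.73, lay below its WT arrays, at 6.82 to 7.10, and its unadjusted p was under 0.05 in all 16 alternatives, against 11 of 16 for Fos, whose arrays overlapped.

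**Figure D5:**
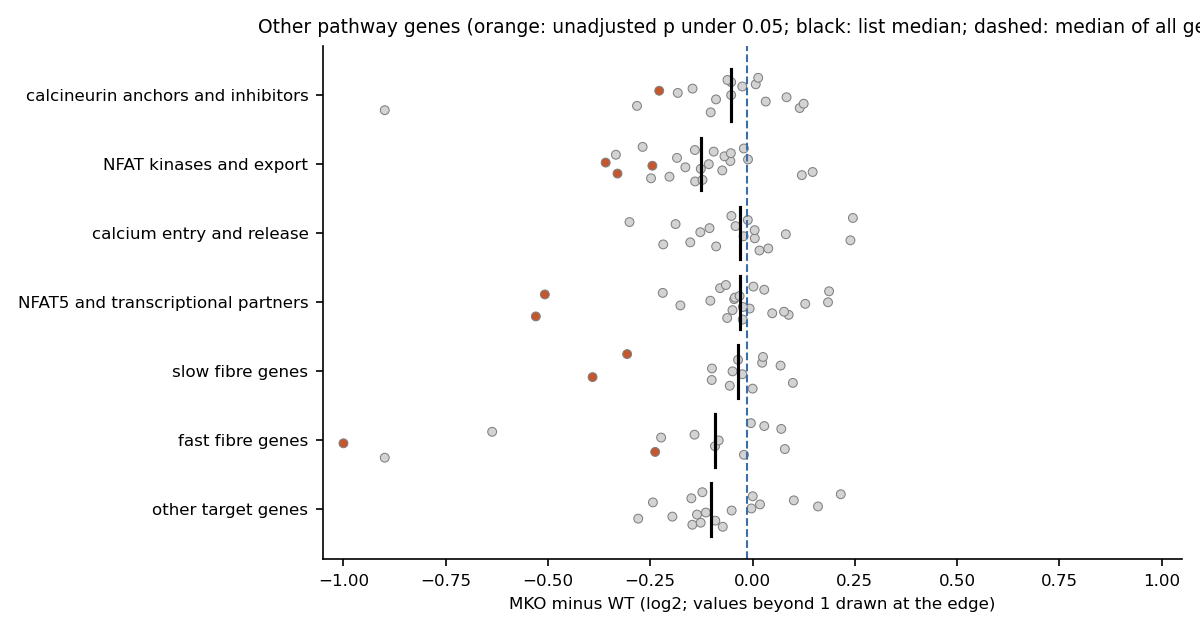
The difference MKO minus WT (log2, x axis) of each measured pathway gene except Ppp3cc and Ppp3r2 is plotted by list. Orange marks an unadjusted p under 0.05, the black bar the list median and the dashed line the median of all genes. Myh4, at −2.51, lies beyond the axis and is drawn at its edge. All orange points lie below 0, 3 of them among the 23 genes listed with the NFAT kinases, and none passed the adjusted threshold in limma. Of all genes, 4.33% had an unadjusted p under 0.05.

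Slow fibre genes that are held to follow calcineurin and NFAT showed a median of −0.04, with 8 of 13 lower. The slow myosin Myh7 stood at 10.99, 10.90 and 11.21 in WT and at 10.93, 10.92 and 10.93 in MKO, and the difference of −0.10 (SE 0.08) did not pass. The slow tropomyosin Tpm3 (−0.31, SE 0.10) and the myosin gene Myh7b (−0.39, SE 0.13) were lower at an unadjusted p under 0.05, with arrays apart. Tpm3 was −0.18 with probe sets above the median level and −0.53 with the median of probe sets, and missed that p without a variance trend, with LPE and without MKO replicate 2. Myh7b was −0.18 with the median of probe sets and −0.24 with probe sets above the median level, and missed it in both. Fast fibre genes had a median of −0.09, with 10 of 13 lower. The type IIb myosin Myh4 differed by −2.51 (SE 1.11, unadjusted p under 0.05), with values of 9.48 to 11.72 in WT and 5.11 to 11.51 in MKO that overlapped. Leaving out MKO replicate 1 gave −0.97 and leaving out MKO replicate 3 gave −4.17, and its p was under 0.05 in 7 of 16 alternatives. MKO replicate 1 was also the lowest array for Actn3 (6.61, difference −0.90, SE 0.64) and Pvalb (5.64, difference −0.64, SE 0.45), fast fibre genes named here after their values were seen. Casq1 (−0.24, SE 0.11, likewise under 0.05, but in 5 of 16 alternatives, and −0.09 without MKO replicate 1), Mylpf (−0.22, SE 0.12), Myh2 (−0.09, SE 0.08) and Myh1 (0.08, SE 0.18) followed. Other genes held to be targets, such as Hk2 (−0.14, SE 0.09), Egr3 (−0.28, SE 0.20) and Tnf (0.22, SE 0.15), had a median of −0.10, with 13 of 18 lower and none at an unadjusted p under 0.05. Over the alternatives the list medians crossed 0 for slow fibre genes (−0.099 to 0.027), fast fibre genes (−0.177 to 0.031), calcium entry and release (−0.058 to 0.037) and the transcriptional partners (−0.068 to 0.005). Those of the NFAT kinases (−0.176 to −0.089), the anchors and inhibitors (−0.112 to −0.014) and the other targets (−0.174 to −0.041) did not.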

How the data were processed

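Total RNA of 6 soleus muscles was hybridised to Affymetrix whole-transcript arrays. The deposited log2 values were made by the authors by robust multi-array averaging (RMA) in Affymetrix Expression Console, per the submitters' processing notes. The software versions and genome build are not named there. The series text speaks of a gene-level export, but the table holds several rows a gene (median 8), treated here as probe sets. Of 269751 probe sets, 233753 carried exactly 1 gene symbol in the platform annotation and were used. A gene's value was the mean of its probe sets, whose levels do not compare between genes. MKO was compared with WT in limma 3.58.1 (R 4.3.3; lmFit, eBayes with a variance trend), two-sided, adjusting by Benjamini-Hochberg over every gene, or every probe set, at a threshold of 0.05. With 3 mice a group, the smallest exact two-sided permutation p is 0.1. The LPE test named in the series text was re-implemented as an alternative. Other alternatives were other moderation, normalization, probe set summaries, level filters, a replicate block and leaving out each array. Ppp3r1 without its most different probe set, and 2 marker means without 1 gene, were added after seeing the data. The fits were run on simulated data with shifts of 1 and 2 log2 units, which does not show how well they find smaller ones. Members, pathway lists and marker lists were chosen with earlier results of these data known. Genes named were all members and, per list, the 3 with the smallest p, with a few fixed by name. The number of arrays limits the precision.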

Additional observations from a re-analysis of the deposited data

How the results depend on the processing

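No member and no member probe set passed the adjusted threshold under any of the alternatives (variance trend, robust moderation, array weights, replicate block, quantile normalization, median centring, level filter, probe set summary, LPE and leaving out each array). Ppp3r1, Rcan2, Ppp3cb and Nfatc2 kept their sign in all 16. Members at an unadjusted p under 0.05 numbered 0 with the median of probe sets, 2 with probe sets above the median level and 1 to 2 with an array left out, and members higher in MKO numbered 3 with the median of probe sets and 3 to 7 with an array left out. Member probe sets at that p numbered 5 above the median level. Pathway genes at that p numbered 6 without a variance trend, 16 with array weights and 6 to 18 with an array left out (18 without MKO replicate 3). The count over all 23152 genes moved as well. It was 998 without a variance trend, 1805 with array weights and 1561 without MKO replicate 3, beside 1002 in the main fit. After adjustment the LPE test called 1 pathway gene, Myh4, and 25 of all 23152 genes. That test compares medians and takes its variance from genes of like level. It therefore does not measure the spread of Myh4 itself, whose MKO values ran from 5.11 to 11.51. With robust moderation in limma the unadjusted p of Myh4 was not under 0.05. The LPE test also gave unadjusted calls. At an unadjusted p under 0.05 in the LPE test, Fos, Myog, Gsk3b, Csnk1a1 and Myh7b were among the other pathway genes, beside 770 of all genes. With the replicate number as a block, 1 member and 9 pathway genes had an unadjusted p under 0.05, beside 873 of all genes. Same-numbered mice did not deviate together (r = −0.088, 0.091 and −0.236 over genes). With 1 mouse per number in each group, this cannot exclude that the numbers pair them.

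Signs turned for Nfatc3 (0.0219) and Rock1 (0.0198) with quantile normalization, for the same genes with median centring (0.0078 and 0.0033), and for Nfatc1 with LPE (−0.0504). Ppp3cc turned with array weights (0.0219), quantile normalization (0.0387), median centring (0.0217) and LPE (0.1676), and Plin1 with array weights (0.0492). With the median of probe sets Nfatc1 (−0.0296), Nfatc4 (−0.0479), Ppp3ca (−0.1869), Rcan1 (−0.2002), Cabin1 (0.0317), Gsk3b (0.0115), Rock1 (0.1423), Myh2 (0.0409), Tnf (−0.0213) and Cfd (0.0586) turned. With probe sets above the median level Ppp3ca (−0.0070), Rock1 (0.0068), Akap5 (0.0998), Myf5 (0.0274) and Cd79a (−0.5363) did. With an array left out the ranges that crossed 0 were −0.0622 to 0.1522 for Nfatc1, −0.0999 to 0.0512 for Nfatc3, −0.0098 to 0.1900 for Nfatc4, −0.0422 to 0.0453 for Ppp3ca, −0.0394 to 0.0669 for Rcan1, −0.0985 to 0.1518 for Ppp3cc, −0.1729 to 0.1446 for Rock1, −0.1172 to 0.2769 for Myh1, −0.4486 to 0.1143 for Plin1 and −0.0067 to 0.2401 for Cd79a. The cause of these turns was not tested.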
